A study of Mus musculus with 2 samples.

Results

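The subject is CG methylation at 48 genes of the BMP and TGF-beta pathway, out of 21938 protein-coding genes on the nuclear chromosomes of the GENCODE M21 annotation (mouse genome build GRCm38). The genes were taken by name, as a list drawn up with earlier results of these data known. They comprise 14 BMP and GDF ligands, 5 TGF-beta and activin ligands, 10 receptors, 8 Smads and 5 antagonists. The rest are 3 Id genes and 3 genes grouped as ligand processing and latency (Bmp1, Ltbp1 and Ltbp2, the last placed there as a relative of Ltbp1). For each gene the window of 2 kb on either side of the gene start (the TSS window), the gene body and 25 kb on each side were examined. Whole genome bisulfite sequencing had been done on primary osteoblasts of 3-day-old C57BL/6 mice after 3 days of culture. The WT library came from wild type mice, and the TCKO library from mice carrying Prx1-Cre and the alleles Tet1fl/fl, Tet2fl/fl and Tet3fl/fl, in which the 3 TET dioxygenases are deleted where Prx1-Cre is active. Prx1-Cre acts in limb and part of the cranial mesenchyme, so unsorted calvarial cultures can keep cells with intact Tet genes. Whether the WT mice carried floxed alleles, and how many mice went into a library, is not given in the sources used here.

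BMPs and TGF-betas are secreted dimers that bring type I and type II receptor kinases together on the cell surface. The activated type I receptor phosphorylates receptor Smads, which join Smad4, enter the nucleus and act on target genes such as the Id genes. BMP signals favour osteoblast formation, TGF-beta is stored in bone matrix in a latent form, and secreted antagonists and the inhibitory Smads limit both branches. TET enzymes oxidise 5mC to 5hmC and further forms on the way to unmethylated cytosine. Bisulfite sequencing reads 5mC and 5hmC alike, so the levels below are their sum.

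Each genotype had 1 library, so differences could not be checked against replicates, and the tests are between these libraries and not between genotypes. The WT library held 261127589 CG calls at 70.2% methylation and the TCKO library 223645082 calls at 76.3%, each with a median of 4 calls per covered cytosine. In each Tet gene, the stretch with at most 25% of the WT calls in TCKO held 755 calls in WT and 70 in TCKO in Tet1, 122 and 13 in Tet2, and 133 and 9 in Tet3. These stretches were chosen for their low depth in TCKO, so they describe the loci and are no check of the labels. The whole genes held 14737 and 11658 calls, 9452 and 7407, and 10356 and 8480. The TSS windows of 8 osteoblast genes in WT had a median of 39.4% (range 3.38% to 76.8%), against 75.5% for 5 haematopoietic genes and 73.5% for 4 endothelial genes. In TCKO the medians were 53.8%, 85.3% and 82.6%. Methylation is not expression, and the part of other cell types in the differences below was not tested. Intervals are 95% Wilson intervals (for differences, Newcombe intervals) and cover counting error only. Intervals and tests treat each call as independent, which calls from the same read need not be.

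A gain of 40 percentage points or more in TCKO was seen in a small share of bins at the pathway genes, above that of the genome. Bins of 200 bp were tested where they held 4 or more CG cytosines and each library gave 4 or more calls per cytosine on average. Of 5905 testable bins at the 48 genes, 291 (4.93%) gained 40 points or more, against 3.15% of all 2316703 testable bins of the genome. Of the 291, 285 also passed the 2-sided Fisher exact test at an adjusted p below 0.05, a criterion met with such a gain by 2.99% of all bins. A loss of 40 points or more was found in 0 of the 5905 bins, near the 0.0412% of all bins. Only bins at 60% or less in WT can gain 40 points. Of 1205 such bins at the pathway genes 24.2% did, against 15.0% in the genome.

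The gained bins went from a low or intermediate level to a high one. Their median level was 27.6% in WT and 82.8% in TCKO, on a median of 45 and 39 calls a bin. In WT 45 of the 291 bins were at 10% or less, and in TCKO 177 were at 80% or more. The gain reached 60 points in 80 bins and 80 points in 12. These levels follow in part from the rule that chose the bins.

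**Figure D1:**
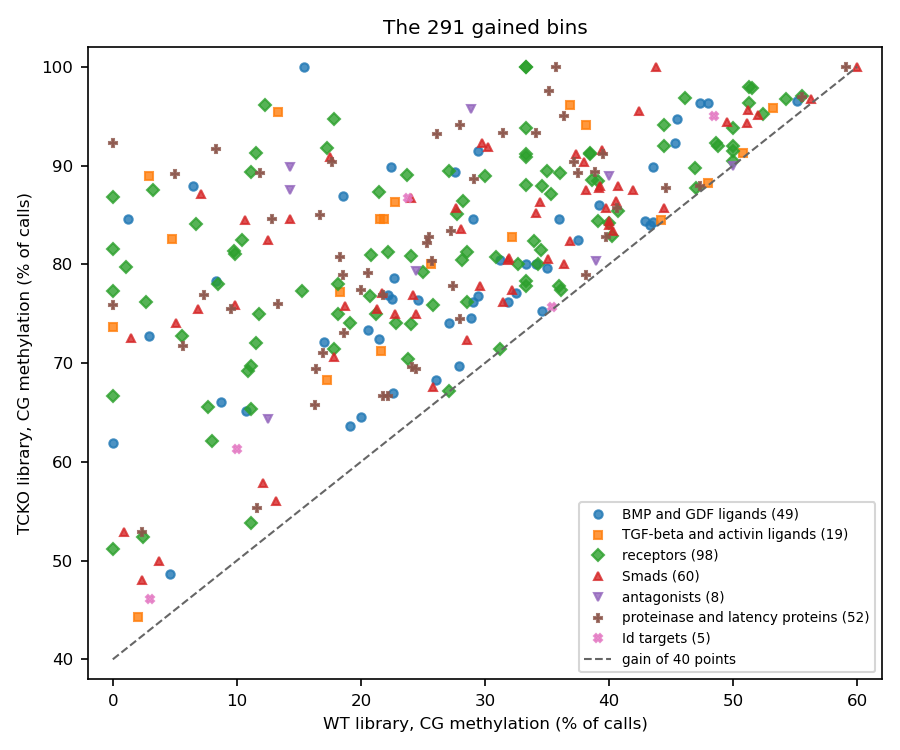
Each point is 1 of the 291 bins of 200 bp that gained 40 points or more, with its CG methylation in the WT library on the x axis and in the TCKO library on the y axis (% of calls), coloured by the role of its gene. The dashed line marks a gain of 40 points, which chose the bins; the medians are 27.6% and 82.8%.

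The gained bins lay at 40 of the 48 genes and mostly within introns. Intronic sequence held 202 of them, of which 89 were in intron 1, while 4 overlapped coding exons, 7 overlapped UTRs and 78 lay outside the gene. The share of all testable bins lying in introns was not counted, so these numbers do not show a preference for introns. Nor was the share of all protein-coding genes with a gained bin, so counts of genes here and by role have no background. In the TSS windows 11 of 198 testable bins gained (5.56%, against 3.11% for the TSS windows of all protein-coding genes), in the rest of the gene bodies 206 of 3270 (6.30%, against 3.42%) and in the flanks 74 of 2437 (3.04%, against 2.80%). The 2.80% leaves out bins inside any protein-coding gene or TSS window, which the flanks of the 48 genes can include. As a whole these flanks were near the 3.15% of all testable bins. Upstream 47 of 1224 gained (3.84%) and downstream 27 of 1213 (2.23%). Of the 74 flanking bins 18 lay inside a neighbouring gene. Across the 48 genes, the number of gained bins followed the number of testable bins (Spearman's rho 0.75, a description over genes that share both libraries). Ltbp1, the longest of these genes, held 46 of the bins, and without it 245 of 5298 (4.62%) gained, a comparison added after the data were seen.

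By role, the share of testable bins that gained ran from 2.57% for the antagonists to 6.64% for the processing and latency genes. The latter value rests on Ltbp1, without which 6 of 176 bins (3.41%) gained. The share was 6.53% for the Smads, 4.82% for the receptors, 4.71% for the TGF-beta and activin ligands, 3.77% for the BMP and GDF ligands and 3.21% for the Id genes. Among single genes the shares of Smad3 (11 of 93 bins, 11.8%), Smad6 (7 of 60, 11.7%) and Tgfbr2 (15 of 148, 10.1%) were highest. These counts depended on the depth and on the placing of bins: at a mean of 8 calls Smad3 had 0 and Tgfbr2 had 2, with every cytosine at 4 calls or more Tgfbr2 had 6, and with bins shifted by 100 bp Smad3 had 7. No gained bin was found at Bmp8a, Bmp8b, Bmp10, Gdf11, Inhbb, Acvr2a, Acvr2b and Chrd, whose testable bins numbered 32 to 147 and whose largest gains ran from 22.7 points (Chrd) to 36.9 points (Gdf11). Next to the limit of 40 points lay a bin upstream of Fst just inside it, with 50% in WT and 90% in TCKO, and a bin at Acvr1 just outside it, with 25% and 64.7%. Differences between roles or genes were not tested.

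**Figure D2:**
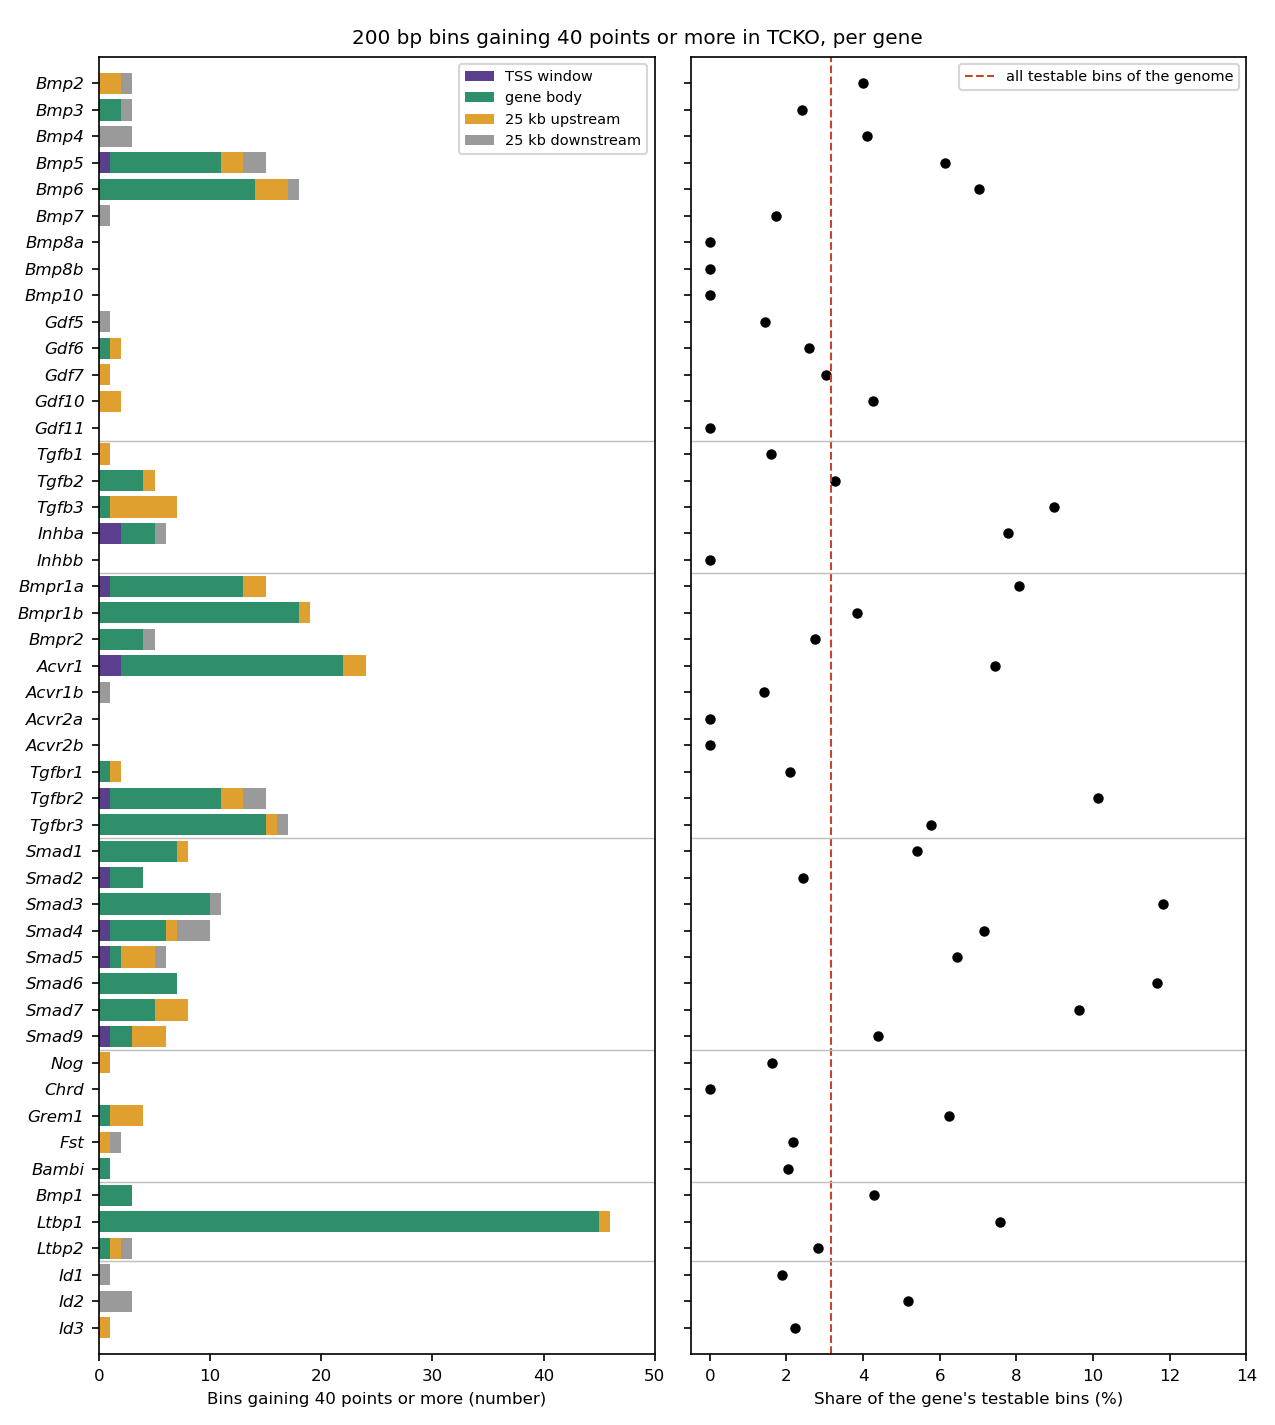
Left, the number of bins gaining 40 points or more for each of the 48 genes, split into TSS window, gene body and the 25 kb upstream and downstream. Right, that number as a share (%) of the gene's testable bins, with the dashed line at the 3.15% of all testable bins; Ltbp1 has the most bins (46) and Smad3 the highest share (11.8%).

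To show what such a bin looks like, the reference sequence of 1 bin per role is printed, namely the bin with the largest gain among those with at least 40 calls in each library and outside UTRs. All are read from the GRCm38 plus strand, 5′ to 3′, in lower case, with each CG in capitals.
Bmp4, chr14:46364201-46364400: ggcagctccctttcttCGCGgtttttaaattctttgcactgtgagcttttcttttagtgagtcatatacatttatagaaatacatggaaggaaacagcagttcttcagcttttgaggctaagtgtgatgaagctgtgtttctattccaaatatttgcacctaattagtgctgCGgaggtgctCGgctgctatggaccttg
Tgfb3, chr12:86097801-86098000: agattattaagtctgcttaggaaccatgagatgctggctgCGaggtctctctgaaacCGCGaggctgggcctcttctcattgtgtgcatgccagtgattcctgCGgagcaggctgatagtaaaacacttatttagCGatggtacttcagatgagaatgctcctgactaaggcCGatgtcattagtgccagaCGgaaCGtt
Bmpr1a, chr14:34445401-34445600: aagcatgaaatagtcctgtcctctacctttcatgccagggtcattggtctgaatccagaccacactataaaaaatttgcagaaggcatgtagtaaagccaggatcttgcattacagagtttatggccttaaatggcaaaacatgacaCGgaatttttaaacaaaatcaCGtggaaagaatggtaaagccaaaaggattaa
Smad6, chr9:64016001-64016200: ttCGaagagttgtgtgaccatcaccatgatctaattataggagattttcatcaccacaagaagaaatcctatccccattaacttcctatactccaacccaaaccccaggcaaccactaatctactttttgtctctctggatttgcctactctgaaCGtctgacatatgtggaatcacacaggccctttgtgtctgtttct
Fst, chr13:114447001-114447200: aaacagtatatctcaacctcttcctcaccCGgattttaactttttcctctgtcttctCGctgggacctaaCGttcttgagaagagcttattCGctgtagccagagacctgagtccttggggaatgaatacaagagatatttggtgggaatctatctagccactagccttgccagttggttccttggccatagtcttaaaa
Ltbp1, chr17:75179801-75180000: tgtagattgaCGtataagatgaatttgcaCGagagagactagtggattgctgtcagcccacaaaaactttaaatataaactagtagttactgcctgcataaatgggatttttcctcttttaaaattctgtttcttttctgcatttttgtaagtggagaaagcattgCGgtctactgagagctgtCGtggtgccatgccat
Id2, chr12:25087601-25087800: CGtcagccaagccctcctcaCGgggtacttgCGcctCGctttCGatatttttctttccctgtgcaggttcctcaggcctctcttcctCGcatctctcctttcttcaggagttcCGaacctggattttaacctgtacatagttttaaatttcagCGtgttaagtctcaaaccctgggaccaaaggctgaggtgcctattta

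These bins held 2 to 8 CGs and, but for the Id2 bin, went from mostly unmethylated to mostly methylated. In the Bmpr1a bin, in intron 3, 0% of 70 calls were methylated in WT (interval 0% to 5.202%) and 81.5% of 65 calls in TCKO (70.5% to 89.1%), over 2 CGs. The Bmp4 bin, with 4 CGs and 26368 bp from the gene start on the downstream side, went from 1.25% of 80 calls to 84.6% of 52 calls. The Ltbp1 bin, in intron 5, went from 11.8% of 93 calls to 89.2% of 65 calls. All 3 were at 11.8% or less in WT. The Smad6 bin, in intron 1, went from 10.6% of 47 calls to 84.4% of 45 calls, and the Fst bin, outside the gene, from 14.3% of 56 calls to 89.8% of 49 calls. The Tgfb3 bin lies 18860 bp upstream of Tgfb3 and inside its neighbour Ift43, with 8 CGs, and went from 22.7% of 88 calls to 86.3% of 95 calls. The Id2 bin, also with 8 CGs, started from the highest level of the 7, at 48.5% of 132 calls in WT, and stood at 95.1% of 162 calls in TCKO. The 7 bins were chosen for their gains, so no test is given for them.

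Among the BMP and GDF ligands, Bmp5 and Bmp6 held most of the gained bins. Bmp6, a ligand with strong osteogenic activity (ENSMUSG00000039004, chr13:38345107-38500302, plus strand), had 18 gained bins of 256 testable, 12 of them in its long intron 1. Their levels ran from 2.94% to 42.9% in WT (median 25.3%) and from 64.5% to 91.4% in TCKO (median 76.3%). The largest gain lay 24794 bp into the gene, from 6.45% of 31 calls to 87.9% of 33 calls. The TSS window of Bmp6 rose from 25.2% (468 calls) to 39.5% (481 calls), by 14.3 points (interval 8.35 to 20.1; Fisher exact test, adjusted p = 2.54e-05).

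Bmp5 (ENSMUSG00000032179, chr9:75775364-75900310, plus strand), a ligand of skeletal and cartilage development, had 15 gained bins of 244 testable. They ran from 8.33% to 47.95% in WT and from 65.1% to 96.3% in TCKO. The pair with the largest gains lay side by side at 75827801-75828200, where the levels went from 8.33% of 60 calls to 78.3% of 69 calls and from 18.6% of 97 calls to 87.0% of 69 calls. The start of an inner Bmp5 transcript, annotated as a processed transcript, lies inside the latter bin at 75828022. The TSS window of Bmp5 was already the most methylated of the ligands but Bmp10 in WT, at 53.9% (864 calls), and rose to 70.7% (748 calls), by 16.8 points (12.1 to 21.4; Fisher exact test, adjusted p = 1.55e-10).

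The other BMP and GDF ligands had 0 to 3 gained bins each. Bmp2, required in limb mesenchyme for fracture repair, had 3, all in its flanks, and its TSS window rose from 30.7% to 44.0% (Fisher exact test, adjusted p = 8.07e-06). Bmp4, a BMP of early limb and bone patterning, had 3, all downstream of the gene, where the bin with the largest gain of this role (46364401-46364600) went from 15.4% of 26 calls to 100% of 16 calls. Its TSS window stood at 29.4% in WT and 29.0% in TCKO and did not pass the test (Fisher exact test, adjusted p = 0.936). At Gdf5, a factor of joint formation, the window rose from 35.9% to 50.3% (Fisher exact test, adjusted p = 1.64e-04). There the stretch from 250 bp upstream to 50 bp downstream of the gene start went from 27.0% of 37 calls to 71.8% of 39 calls, the largest difference among the 39 genes with at least 10 calls in each library. Bmp3 and Bmp10 also passed, with 8.35 and 7.56 points, and the other 8 ligands of this role did not. Thus 6 of 14 windows passed, all higher in TCKO (42.9%, against 38.1% of all protein-coding genes).

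Of the TGF-beta and activin ligands, Inhba stood apart at its gene start. Inhba (ENSMUSG00000041324, chr13:16011851-16031621, plus strand) encodes the subunit of activin A. Its TSS window rose from 34.1% of 502 calls in WT (interval 30.1% to 38.3%) to 57.9% of 466 calls in TCKO (53.4% to 62.3%), by 23.9 points (Fisher exact test, adjusted p = 3.75e-12). The rise lay outside the first kb of the gene, which stood at 3.74% of 107 calls in WT and 3.00% of 100 calls in TCKO. In the kb upstream the level went from 22.5% of 71 calls to 65.0% of 60 calls, and between 1 and 2 kb downstream from 20.3% of 153 calls to 67.3% of 205 calls. With a window of 1 kb on either side the rise was 15.0 points (Fisher exact test, adjusted p = 0.00306), short of the 20 points set for a call. Over the kb before the start and the 100 bp after it, the rise was 43.9 points.

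At Acvr1 the rise of the TSS window lay farther inside the gene. Acvr1 (ENSMUSG00000026836, chr2:58388644-58567157, minus strand) encodes the type I BMP receptor ALK2. Its TSS window rose from 7.04% of 341 calls (4.775% to 10.3%) to 28.3% of 375 calls (23.95% to 33.0%), by 21.2 points (Fisher exact test, adjusted p = 1.82e-12). Between 1 and 2 kb downstream of the gene start the level went from 6.84% of 117 calls to 63.6% of 143 calls. In the kb before the start it went from 0% of 70 calls to 3.39% of 59 calls, and in the first kb from 0% of 57 calls to 1.01% of 99 calls. With a window of 1 kb on either side the difference was 1.90 points (Fisher exact test, adjusted p = 0.452), and over the kb before the start and the 100 bp after it 3.23 points (adjusted p = 0.382). The call at Acvr1 therefore rests on intron 1 and not on the gene start itself.

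The reference sequences of 2 of the bins behind these calls are printed in the same way, from the plus strand.
Inhba, chr13:16013401-16013600: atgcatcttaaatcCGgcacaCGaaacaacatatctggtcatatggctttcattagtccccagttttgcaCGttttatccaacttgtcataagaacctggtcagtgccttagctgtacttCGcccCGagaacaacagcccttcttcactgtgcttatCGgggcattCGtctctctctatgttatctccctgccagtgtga
Acvr1, chr2:58565601-58565800: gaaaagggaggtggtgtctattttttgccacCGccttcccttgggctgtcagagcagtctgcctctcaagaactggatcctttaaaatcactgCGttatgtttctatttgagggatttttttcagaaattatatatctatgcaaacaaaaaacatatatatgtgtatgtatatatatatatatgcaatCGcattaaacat
The Inhba bin, with 7 CGs at 1650 bp from the gene start, went from 17.3% of 81 calls to 68.3% of 145 calls. The Acvr1 bin, with 3 CGs at 1456 bp, went from 11.5% of 26 calls to 91.3% of 23 calls, and the bin next to it (58565801-58566000) from 0% of 42 calls to 51.2% of 43 calls.

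In all, 24 of the 48 TSS windows passed the Fisher exact test at an adjusted p below 0.05, all 24 of them higher in TCKO (50% of the 48, against 38.1% of all protein-coding genes). With the further requirement of 20 points, Inhba and Acvr1 were the 2 of 48 called, against 3.85% of the TSS windows of all 21773 protein-coding genes tested. A count of 2 in 48 is near that background. The median difference over the 48 windows was 5.50 points, against 4.72 points over all genes, and 42 windows were higher in TCKO and 6 lower (87.5% higher, against 76.4% of all genes). None of the 6 lower windows (Bmp4, Gdf11, Acvr1b, Acvr2a, Smad7 and Ltbp1) passed the test. The WT median of the 48 windows was 24.5%, against 45.3% over all genes.

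The gene starts themselves were almost free of methylation in both libraries. From 250 bp upstream to 50 bp downstream, 34 of the 39 genes with at least 10 calls in each library were below 5% in both, and 22 had 0 methylated calls in both. In the 250 bp after the start, pooled over the 48 genes, the level was 3.65% in WT and 4.57% in TCKO, against 19.1% and 21.1% over all protein-coding genes. From there the levels climbed more slowly than at other genes. Between 2750 and 2999 bp into the gene they had reached 35.0% in WT and 52.9% in TCKO, the widest gap of the profile at 17.9 points, where all genes stood at 68.2% and 74.5%, 6.36 points apart. Many bins near the start could not be tested: 24.5% of the 807 TSS-window bins with at least 4 CG cytosines reached the depth, against 29.8% over all genes.

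**Figure D3:**
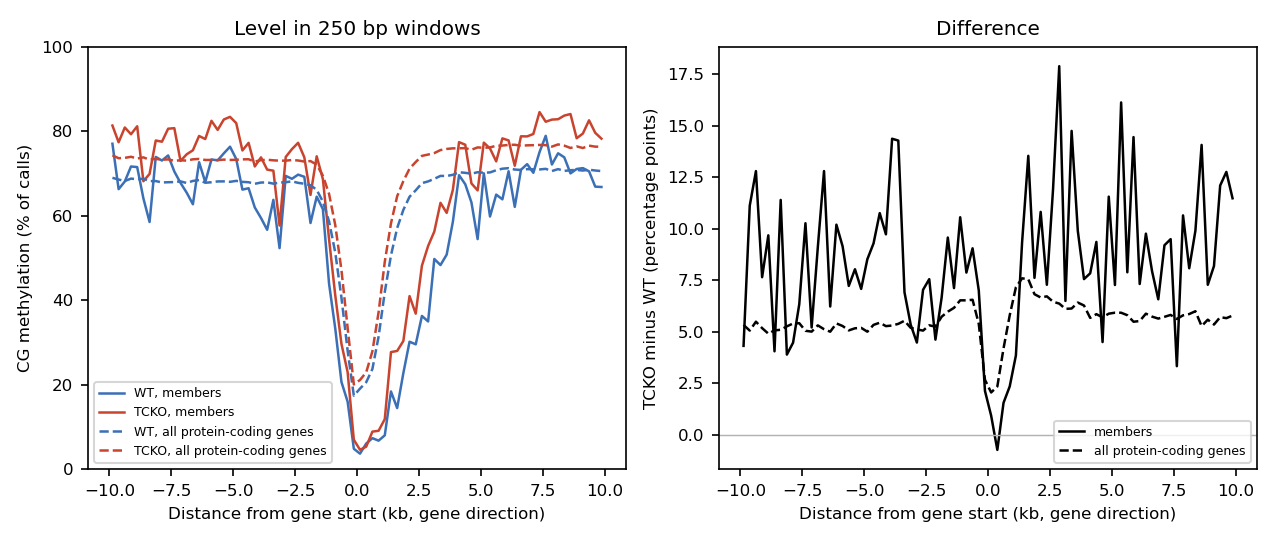
Left, CG methylation (% of calls) in 250 bp windows by distance from the gene start (kb, in the direction of the gene), pooled over the 48 pathway genes (solid) and over all protein-coding genes (dashed) in the WT and TCKO libraries. Right, the difference TCKO minus WT in percentage points; it is smallest just after the start and reaches 17.9 points between 2750 and 2999 bp for the pathway genes.

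Other choices of window called other genes of the pathway. With 1 kb on either side, Gdf5 (33.6 points), Bmpr1a (23.4 points) and Bmp6 (22.2 points) were called in place of Inhba and Acvr1. At Bmpr1a, the type I receptor also called ALK3, the level of the kb upstream went from 16.1% of 348 calls to 42.1% of 299 calls, while the first 2 kb of the gene had 0% in both libraries. With a window around the start of each annotated transcript, 7 genes were called, against 8.22% of all genes. The largest rise there was that of Ltbp1 around the start at 75178911, from 21.2% of 741 calls to 63.9% of 545 calls (42.7 points; Fisher exact test, adjusted p = 2.80e-51). Smad7, Smad3, Bmp5 and Smad1 were also called at inner starts, by 26.2, 25.1, 23.2 and 20.5 points.

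The remaining TGF-beta ligands differed in where the gains lay. Tgfb2, which is needed for skull and heart development (chr1:186622792-186705989, minus strand), had 5 gained bins, 4 of them in intron 1. The largest, at 186695201-186695400, went from 2.94% of 34 calls to 88.9% of 27 calls, the largest gain of this role. Its gene body stood at 68.0% in WT and 80.4% in TCKO, 12.5 points apart. Tgfb3 (chr12:86056745-86079041, minus strand), a ligand of palate fusion, had 7, of which 6 lay upstream and inside Ift43. Tgfb1, the main TGF-beta of bone matrix, had 1 gained bin, and its TSS window rose from 12.2% of 764 calls to 24.6% of 496 calls (Fisher exact test, adjusted p = 2.47e-07). That rise lay upstream of the gene, with 48.4% and 82.5% between 1 and 2 kb before the start, while the first kb had 0% of 216 calls and 1.85% of 54 calls. Inhbb, which encodes the subunit of activin B, had 0 gained bins, and its TSS window did not pass the test at 1.89% and 3.63%.

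Among the receptors, gained bins were found at 8 of the 10 genes, a count without a background. They were 98 of 2032 testable bins (4.82%, against 3.15% of all testable bins). The type I receptors had 61 gained bins of 1170 (5.21%), the type II receptors 20 of 567 (3.53%) and Tgfbr3, the type III receptor also called betaglycan, 17 of 295 (5.76%). All 10 receptor gene bodies were higher in TCKO (100%, against 85.3% of all protein-coding genes), by 3.92 points (Acvr2a) to 14.2 points (Tgfbr2). At the TSS window 6 receptors passed the test, all higher in TCKO (60%, against 38.1% of all protein-coding genes). They were Acvr1, Bmpr1a, Bmpr1b, Tgfbr1, Tgfbr2 and Tgfbr3. The other 4, Bmpr2, Acvr1b, Acvr2a and Acvr2b, did not.

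Acvr1 had the most gained bins of the receptors, 24 of 322, and 10 of them were in intron 1. Its bins ran from 0% to 55.6% in WT (median 23.9%) and from 51.2% to 100% in TCKO (median 85.7%). The bin at 58485801-58486000 in intron 5 went from 0% of 25 calls (interval 0% to 13.3%) to 86.8% of 38 calls (72.7% to 94.3%), the largest gain among the receptors. A deeper bin at 58554401-58554600 in intron 1 went from 1.05% of 95 calls to 79.8% of 84 calls. The 2 upstream bins lay in the neighbour Upp2.

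Bmpr1b (chr3:141837136-142169425, minus strand), the type I receptor ALK6 of cartilage, had 19 gained bins of 496, of which 17 lay in introns 1, 2 and 10. The largest gain, at 141891601-141891800, was from 3.23% of 31 calls to 87.5% of 24 calls. Its share of 3.83% was below those of Acvr1 (7.45%) and Bmpr1a (8.06%). Bmpr1a (chr14:34410734-34503341, minus strand) had 15 of 186, from 0% to 50% in WT and from 53.9% to 96.2% in TCKO. A bin over one of its coding exons, at 34447801-34448000, went from 0% of 36 calls to 77.3% of 75 calls.

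Tgfbr2 (chr9:116084293-116175360, minus strand), the type II receptor that binds TGF-beta, had 15 gained bins of 148. They included 3 in a row in intron 4 (116123201-116123800), where the pooled level went from 20% of 95 calls to 76.7% of 103 calls. Another 3 lay between 116173001 and 116174200 at the beginning of intron 1, a stretch that went from 28.9% of 294 calls to 78.0% of 177 calls. A pair of bins upstream of the gene (116189401-116189800) went from 11.1% of 63 calls to 89.4% of 66 calls and from 6.67% of 30 calls to 84.1% of 44 calls. These stretches lie within the gene, close to its start and upstream of it. Tgfbr2 had the largest gene body difference of the receptors, with 69.9% of 11137 calls and 84.1% of 9554 calls. Tgfbr3 (chr5:107106570-107289629, minus strand) had 17 bins, 15 of them in introns and the largest, at 107200401-107200600, from 2.70% of 74 calls to 76.2% of 63 calls. Bmpr2, the type II receptor of the BMP branch, had 5, Tgfbr1 (ALK5) had 2 and Acvr1b (ALK4) had 1.

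All 8 Smads had gained bins, 60 of 919 in total (6.53%, against 3.15% of all testable bins). The share of all genes with a gained bin was not counted. The receptor Smads of the BMP branch (Smad1, Smad5 and Smad9) had 20 of 378 (5.29%), those of the TGF-beta and activin branch (Smad2 and Smad3) had 15 of 258 (5.81%), Smad4 had 10 of 140 (7.14%) and the inhibitory Smad6 and Smad7 had 15 of 143 (10.5%). Of the bins at 60% or less in WT, 29.4% of 51 gained at Smad6 and Smad7, against 32.6% of 184 at all 8 Smads. All 8 gene bodies were higher in TCKO (100%, against 85.3% of all protein-coding genes). Of the 8 TSS windows 3 passed the test, all higher in TCKO (37.5%, against 38.1% of all protein-coding genes). They were those of Smad2 (9.27% to 17.0%), Smad5 (38.7% to 52.1%) and Smad9 (40.3% to 48.4%), and the other 5 did not pass.

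Smad7 and Smad6 had the largest gene body differences of all 48 genes. Both proteins block receptor Smads and are induced by the pathway they limit. The body of Smad7 (ENSMUSG00000025880, chr18:75367529-75395935, plus strand) stood at 33.5% of 3901 calls in WT and 55.1% of 3494 calls in TCKO, 21.6 points apart (19.4 to 23.8). That of Smad6 (ENSMUSG00000036867, chr9:63953076-64022059, minus strand) stood at 52.3% of 6712 calls and 70.8% of 5469 calls, 18.5 points apart (16.8 to 20.2). Among all gene bodies these differences were at the 99.3rd and 98.6th percentile. In WT their bodies were also less methylated than those of the other 6 Smads, which ran from 67.5% to 78.4%.

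The differences were spread over many bins of both genes. Smad7 had 24 testable bins in its body beyond the TSS window, of which 16 differed by 20 points or more, and their median went from 50.8% to 79.3%. In Smad6 16 of 36 did, and the median went from 61.4% to 84.0%. Smad7 had 5 gained bins in intron 3 and 3 upstream, between 75363201 and 75364200, a stretch that went from 18.99% of 158 calls to 72.9% of 210 calls. Intron 3 held most of the gained bins of both genes. Smad6 had 6 in intron 3, of which 3 in a row at 63967201-63967800 went from 26.9% of 149 calls to 87.1% of 170 calls. A pair at 63973801-63974200 rose from near 0, namely 2.33% of 86 calls and 0.870% of 115 calls, to 48.1% of 52 calls and 52.9% of 123 calls. The TSS window of neither gene passed the test, with 13.1% and 9.46% at Smad7 and 6.80% and 10.2% at Smad6.

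**Figure D4:**
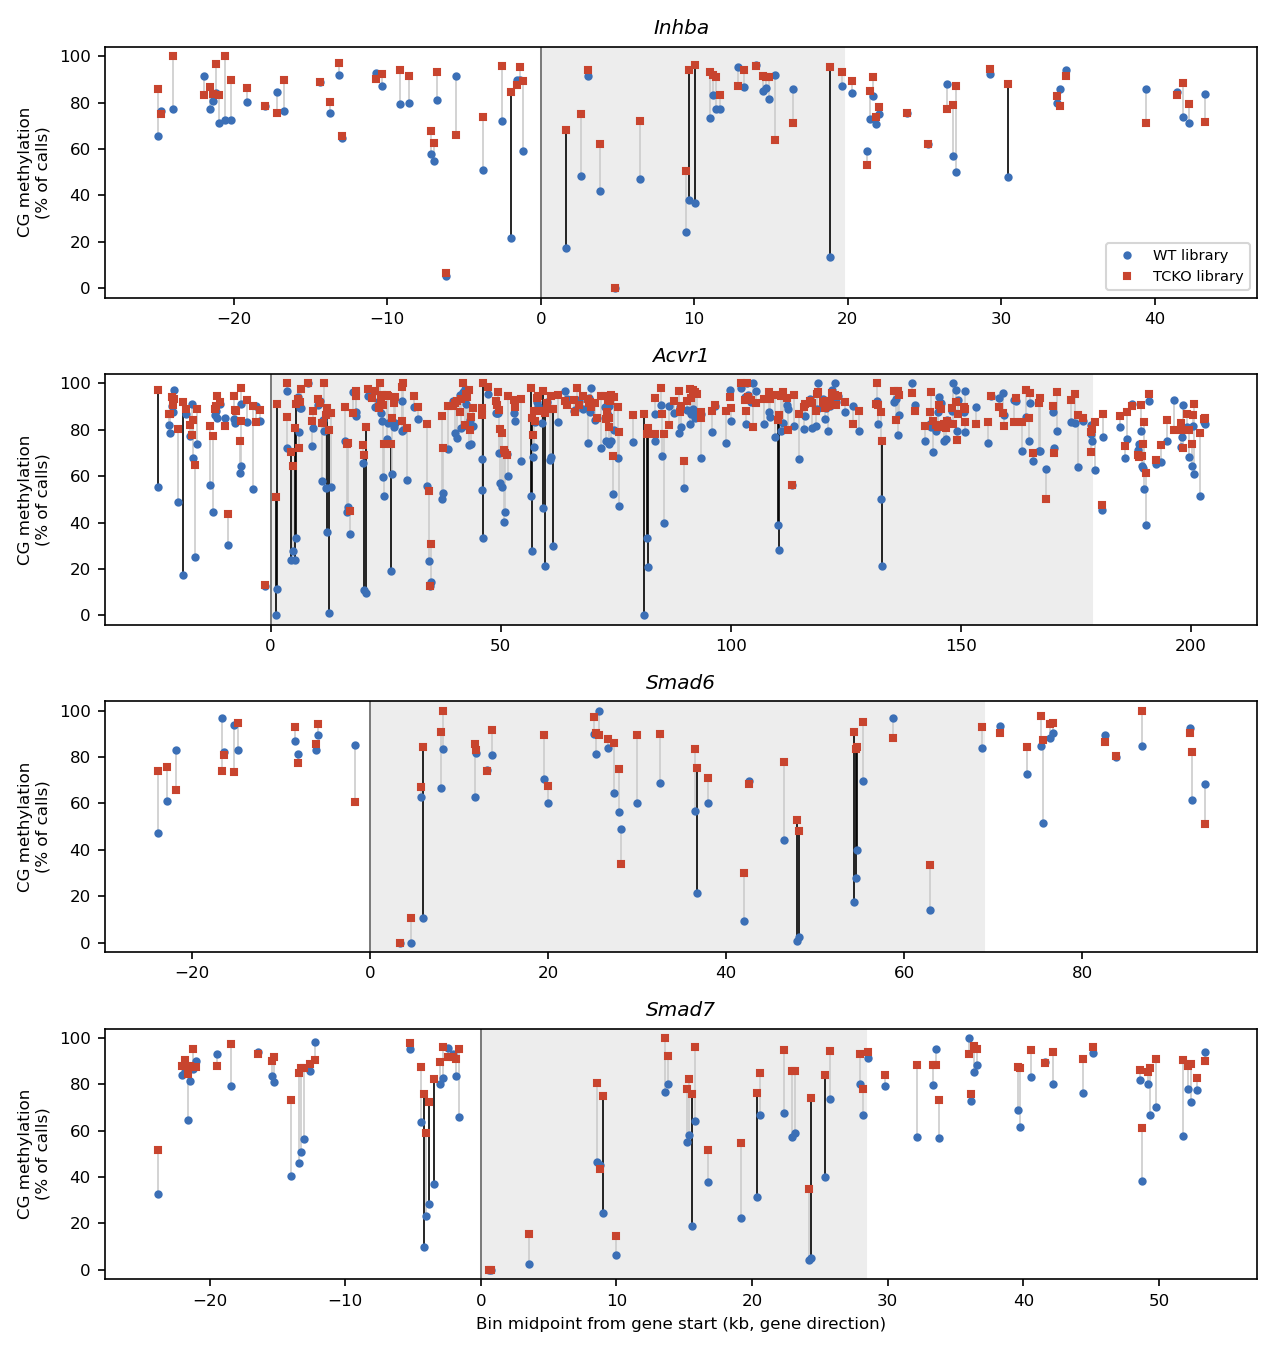
CG methylation (% of calls) of each testable 200 bp bin in the WT and TCKO libraries by distance of its midpoint from the gene start (kb, in the direction of the gene) at Inhba, Acvr1, Smad6 and Smad7, with the gene body shaded and black lines joining the values of bins that gained 40 points or more. In Smad7, 16 of 24 body bins differed by at least 20 points, and in Smad6 16 of 36.

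Smad3 (chr9:63646767-63757994, minus strand), which carries TGF-beta and activin signals, had 11 gained bins of 93, and 10 of them were in intron 1. They ran from 12.1% to 56.3% in WT and from 57.9% to 96.8% in TCKO. The largest, at 63743401-63743600, went from 12.5% of 64 calls to 82.5% of 40 calls and lies 236 bp before an annotated inner transcript start. The Smad3 body stood at 67.5% and 82.0%, 14.5 points apart, while its TSS window stood at 4.23% and 7.22% and did not pass the test. Smad4, the common partner of receptor Smads (chr18:73639009-73703780, minus strand), had 10 of 140, among them 3 between 73700401 and 73702000 in intron 1, a stretch that went from 34.9% of 189 calls to 81.7% of 164 calls. Smad1 had 8, Smad5 and Smad9 had 6 each and Smad2 had 4. The largest gain among all Smads was at Smad9, 1881 bp upstream of its start, from 7.14% of 42 calls to 87.1% of 31 calls.

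The antagonists had the lowest share of gained bins of the roles, 8 of 311 testable (2.57%, against 3.15% of all testable bins). These lay at 4 of the 5 genes, a count without a background. Grem1, gremlin, a secreted BMP antagonist of limb and bone, had 4, of which 3 lay upstream, the farthest of them inside Scg5. Its body stood at 57.6% of 1434 calls and 72.2% of 1172 calls, 14.6 points apart (10.9 to 18.2). Fst, follistatin, which binds activins, had 2 outside the gene, and its TSS window was near 0 in both libraries, with 1.29% of 1703 calls and 2.15% of 1305 calls. Nog, noggin, which sequesters BMPs, had 1 and Bambi, a membrane pseudoreceptor, also had 1, while Chrd, chordin, had 0.

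Nog had the third largest body difference, but its whole gene lies within its TSS window. The body (ENSMUSG00000048616, chr11:89300638-89302332, minus strand) stood at 4.68% of 491 calls and 19.7% of 355 calls, 15.0 points apart (10.6 to 19.8). The TSS window rose from 5.08% of 886 calls to 13.1% of 650 calls (Fisher exact test, adjusted p = 5.85e-07). The first kb had 0% in both libraries, over 205 and 117 calls, and the level between 1 and 2 kb went from 7.06% of 326 calls to 26.3% of 266 calls. Bambi was the other antagonist to pass at the TSS window, with 17.4% and 25% (Fisher exact test, adjusted p = 0.00947). These 2 are 40% of the 5 antagonists, against 38.1% of all protein-coding genes.

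Ltbp1 carried the longest run of gained bins. It encodes a protein of the extracellular matrix that binds latent TGF-beta and exists in a long and a short form from separate starts. The gene (ENSMUSG00000001870, chr17:75005568-75392512, plus strand) had 46 gained bins of 607 testable, 9 each in introns 3, 4 and 5. They ran from 0% to 59.1% in WT (median 23.2%) and from 52.9% to 100% in TCKO (median 82.4%). The largest gain of all 291 bins was at 75089001-75089200 in intron 3, from 0% of 34 calls (0% to 10.2%) to 92.3% of 39 calls (79.7% to 97.4%).

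When gained bins with at most 1 kb between them were joined, 211 stretches resulted, of which 149 were lone bins, 48 were pairs and 14 had 3 bins or more, in 9 genes. The longest, in Ltbp1 at 75179201-75181400, held 7 gained bins, which were all 7 testable bins there. Its pooled level went from 19.4% of 469 calls (16.1% to 23.2%) to 82.1% of 391 calls (78.0% to 85.6%). The midpoint of its first bin lies 390 bp after the protein-coding transcript start at 75178911. The TSS window of the gene start, far upstream, stood at 30.6% and 28.8% and did not pass the test (Fisher exact test, adjusted p = 0.770). Over all 48 genes, 12 of the 206 gained body bins lay within 1 kb of another annotated transcript start of the same gene (5.83%), against 3.73% of the 3270 testable body bins.

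Of the other genes of processing and latency, Bmp1, a proteinase that cleaves procollagens and chordin, had 3 gained bins, all in introns, with 28.0% to 37.2% in WT and 90.3% to 94.1% in TCKO. Ltbp2, a relative of Ltbp1 in elastic fibres, had 3, and its TSS window rose from 42.0% to 54.9% (Fisher exact test, adjusted p = 4.80e-04). The 3 gene bodies differed by nearly the same amount, by 9.52 points (Ltbp1) to 9.82 points (Bmp1).

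The Id genes, direct targets of BMP Smads, are short and their bodies were almost unmethylated. The body of Id1 had 0% in both libraries, over 302 and 145 calls, that of Id2 had 1.72% and 3.38% and that of Id3 had 0.548% and 2.88%. Their 3 TSS windows all passed the test, higher in TCKO (100%, against 38.1% of all protein-coding genes). The differences were 1.68 points at Id2 (Fisher exact test, adjusted p = 0.0341), 4.27 points at Id1 (Fisher exact test, adjusted p = 0.00146) and 8.71 points at Id3 (Fisher exact test, adjusted p = 1.75e-04). At Id3 the difference lay between 1 and 2 kb upstream, with 41.2% of 136 calls and 68.6% of 102 calls, while the first kb had 0% in both libraries. Of the 5 gained bins of these genes, 4 lay downstream and 1 upstream, and the largest gain was at Id2, 9639 bp from its start, from 23.8% of 42 calls to 86.7% of 30 calls.

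**Figure D5:**
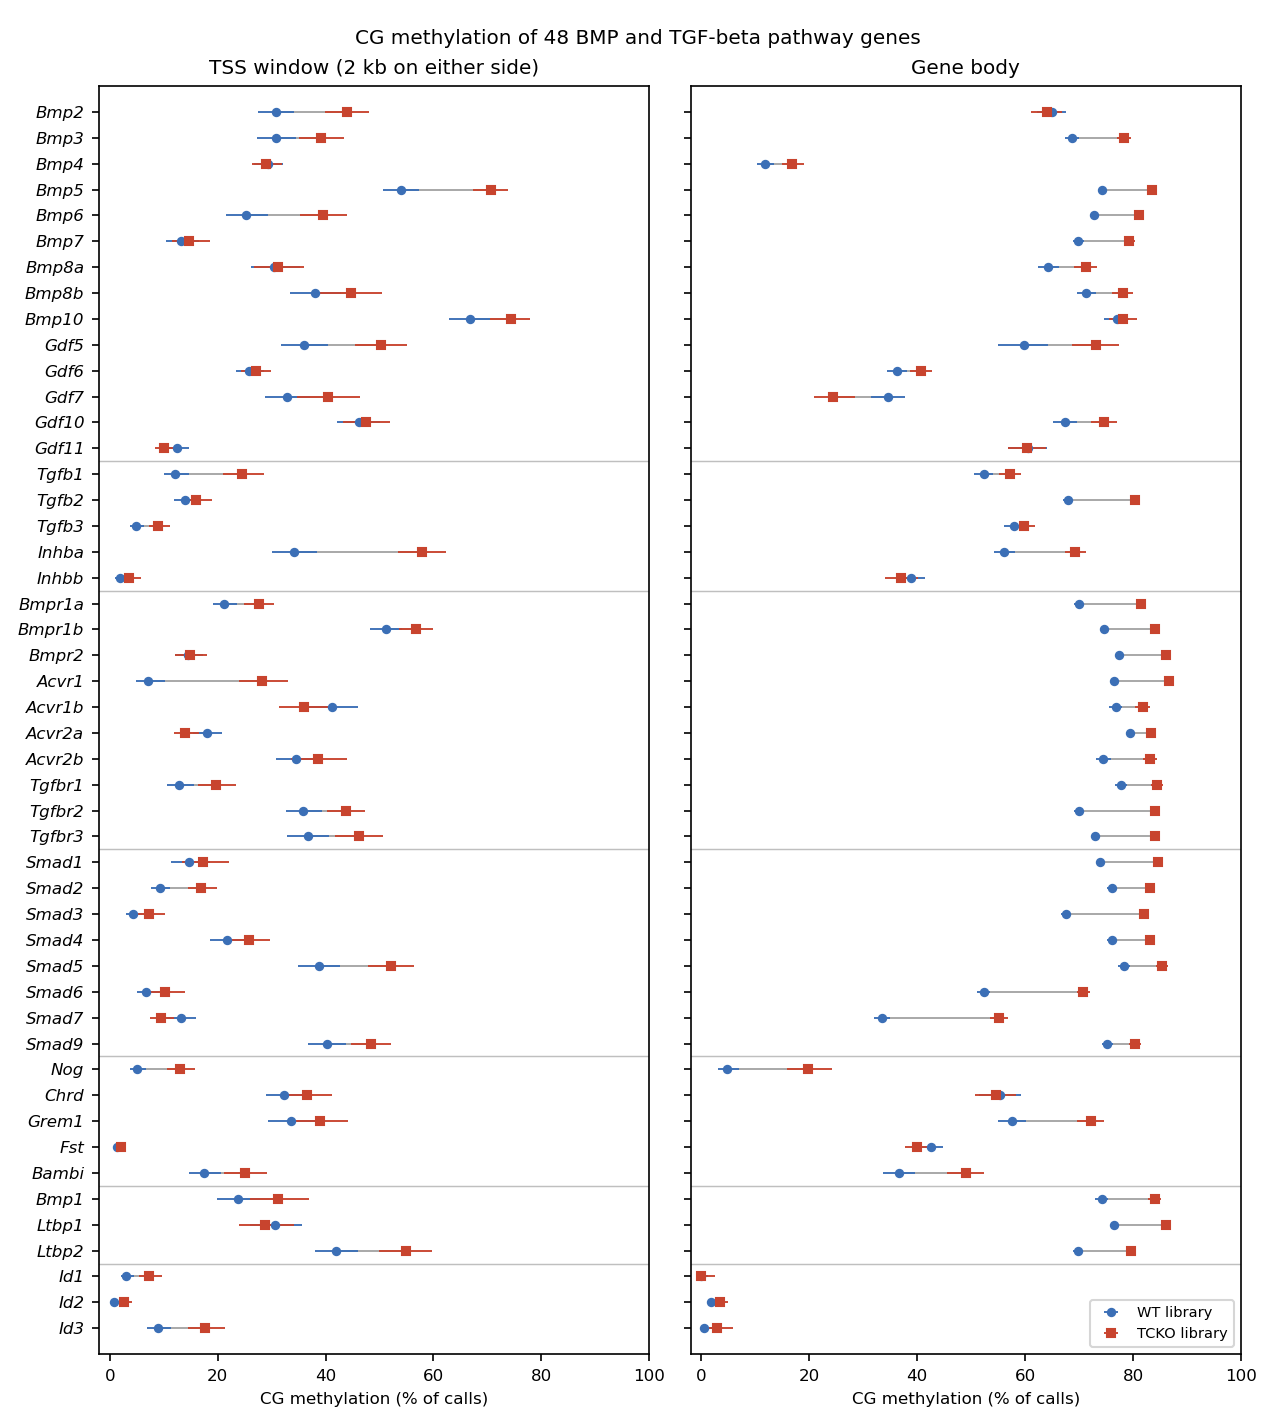
CG methylation (% of calls) of the TSS window (left) and the gene body (right) of each of the 48 genes in the WT library (circles) and the TCKO library (squares), with 95% Wilson intervals that cover counting error only and grey lines between roles. The TSS windows of Inhba (34.1% and 57.9%) and Acvr1 (7.04% and 28.3%) and the bodies of Smad7 (33.5% and 55.1%) and Smad6 (52.3% and 70.8%) lie farthest apart.

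Gene by gene, the bodies differed by a median of 7.87 points, against 5.72 points over 20808 protein-coding genes. Of the 48 bodies 41 were higher in TCKO (85.4%, against 85.3% of all genes). Pooled, they stood at 71.2% of 366452 calls and 80.7% of 304196 calls, 9.54 points apart, against 6.93 points for the pooled bodies of all genes. Gdf7, a ligand of tendon and neural development, had the lowest difference, with 34.6% of 859 calls in WT and 24.5% of 503 calls in TCKO (-10.1 points, interval -14.9 to -5.11). Fst (42.6% and 40.01%) and Inhbb (38.9% and 37.0%) followed, with intervals of the difference that include 0. At Gdf7 the first kb went up, from 18.1% of 149 calls to 28.0% of 75 calls. The next kb also did, from 76.5% of 98 calls to 87.1% of 62 calls. No 200 bp bin of the Gdf7 body beyond the TSS window was testable. No test was run on bodies.

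Flank levels were higher in TCKO at nearly every gene. Upstream, all 48 were higher in TCKO, by 2.65 points (Id2) to 16.9 points (Tgfb3), with a median of 7.62 points, against 87.1% higher and a median of 5.37 points over all protein-coding genes. Downstream 47 were, with a median of 6.69 points, against 87.5% and 5.62 points, and the exception was Ltbp1, with 68.2% in WT and 63.6% in TCKO. Pooled over both sides, the flanks stood at 69.0% of 288578 calls and 76.6% of 240102 calls, 7.63 points apart. The pooled upstream and downstream differences were 8.12 and 7.12 points, against 5.36 and 5.61 points over all genes.

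Short sequence motifs were searched in the gained bins on both strands, as letters only. The Runt motif AACCACA occurred in 30 of the 291 bins (10.3%, interval 7.32% to 14.3%), against 5.11% of all testable bins and 8.99% of all gained bins of the genome. The AP-1 motif TGACTCA or TGAGTCA occurred in 28 (9.62%, 6.74% to 13.6%), against 3.05% and 8.43%, and the TEAD motif CATTCCA in 19 (6.53%, 4.22% to 9.97%), against 3.20% and 5.59%. Each share at the pathway genes was thus near that of gained bins elsewhere. Only 2 Smad motifs were searched, and shorter forms were not. GTCTAGAC occurred in 1 bin, at Tgfb3 (0.344%, against 0.15% of all testable bins), and GGCGCC in 2, at Bmpr1a and Smad6 (0.687%, against 0.65%). The Bmp4 bin printed above holds an AP-1 motif, and none of the other printed bins holds any of these motifs. Of the 30 bins with a Runt motif 5 were at Acvr1 and 4 at Bmp5, and of the 19 with a TEAD motif 7 were at Bmp6.

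Another 45 genes of the same pathway, listed with the results known, gave 156 gained bins of 4115 (3.79%, against 3.15% of all testable bins). Of their TSS windows 19 passed the test upward (42.2%, against 38.1% of all protein-coding genes) and 1 downward (against 626 of 21773). Of the 45 windows 4 were called, against 3.85% of all windows. These were Sostdc1, a BMP and Wnt antagonist of teeth (47.45% of 607 calls to 75.4% of 479 calls), Eng, the endothelial co-receptor endoglin (45.9% to 71.9%), Bmp15, an oocyte ligand (62.3% to 85.5%), and Mstn, myostatin of muscle (53.6% to 73.8%). By the Fisher exact test the adjusted p of the 4 lay between 7.39e-19 and 2.68e-06. From 1 kb upstream to 100 bp downstream the difference was 14.7 points at Sostdc1 (Fisher exact test, adjusted p = 0.114) and 16.9 points at Mstn, and with cytosines weighted equally it was 19.5 points at Eng, all short of 20 points.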

How the data were processed

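Whole genome bisulfite sequencing of 1 WT and 1 TCKO library was analysed. The tables deposited by the authors hold, for each cytosine of a CG on either strand, counts of methylated and of all calls. Per the labels and the study's methods, bases were called with CASAVA and reads were aligned to GRCm38 with BSMAP 2.74, keeping unique alignments with at most 2 mismatches; removal of duplicate reads is not given in the sources used here. Unique alignment can thin coverage between the similar genes Bmp8a and Bmp8b. Expression data of the study were not used here.

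Calls were pooled over 200 bp bins (4 or more CG cytosines, with 4 or more calls on average per library), TSS windows (at least 50 calls), gene bodies (at least 100 calls, the part within the TSS window included) and 25 kb flanks, with gene models of GENCODE M21. A bin was assigned by its midpoint, first to the TSS window, then to the body, then to a flank. Bins and windows were compared with the 2-sided Fisher exact test, adjusted by Benjamini-Hochberg over all bins or windows of the genome; a window was called at an adjusted p below 0.05 and 20 points. Levels have Wilson intervals. Introns were numbered in the coding transcript with most exons. The depth, a median of 4 calls per cytosine, leaves wide intervals on a lone bin, which are printed for only some of the bins. In calls simulated on chromosome 19 (63008 bins, 200 raised by 55 points), 189 of the 200 (94.5%) were recovered and 17 unchanged bins were called, or 167 and 1 with the test added. Python 3.11.15, numpy 2.4.6, pandas 2.3.3, scipy 1.17.1, numba 0.67.0 and matplotlib 3.10.9 were used.

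The member genes and all lists were chosen with earlier results of these data known. Full values were given for genes with a called TSS window, the 10 genes with most gained bins, the largest gain per role and the 3 largest and 3 smallest body differences, and printed sequences leave out chromosome 18; values of other genes were chosen after they were seen. Alternatives changed the depth minimum, the size of gain, the window, the weighting of cytosines and the flank length.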

Additional observations from a re-analysis of the deposited data

How the results depend on the processing

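The number of gained bins followed the limits set on it, while the share stayed above that of all testable bins at each of these limits. With a mean of 8 calls 74 bins gained (3.62%, against 2.27% of all bins) and with a mean of 2 calls 585 (5.91%, against 3.85%). At a gain of 30 points the count was 524 (8.87%, against 6.22%) and at 50 points 168 (2.85%, against 1.61%). Called TSS windows numbered 4 of 47 from 1 kb upstream to 100 bp downstream (7.76% of all genes were called), 7 of 48 with each transcript start (8.22%), 5 of 48 with cytosines weighted equally (4.12%) and 9 of 48 at 10 points (23.7%), where the other pathway genes gave 11 of 45. The median body difference was 8.18 points with cytosines weighted equally and 8.25 points without the first 2 kb, and the pooled difference was 9.54 points. With cytosines weighted equally the bodies of Fst and Inhbb changed sign, to 2.25 and 2.90 points higher in TCKO. The cause was not tested. Counts of single genes moved more: at a mean of 8 calls Ltbp1 had 12 gained bins, Acvr1 and Bmp6 had 4 each and Tgfbr3 had 3. Leaving out Ltbp1 was chosen after seeing the data. No paired analysis was possible because each genotype had 1 library, and for the same reason no replicate could be left out.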
